A study of Mus musculus with 8 samples.

Results

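The genes described here encode the inducible parts of the machinery that cuts cytosolic proteins into peptides and loads these onto MHC class I molecules. They are 10 of the 20057 genes in the file, chosen by function and with earlier results of these data known. They comprise the immunoproteasome subunits Psmb8, Psmb9 and Psmb10, the proteasome activator subunits Psme1 and Psme2, and the peptide transporter subunits Tap1 and Tap2. The others are the peptide editors Tapbp and Tapbpl, and the trimming peptidase Erap1. All 10 passed the filter on low values. The proteasome is a barrel whose inner β subunits cut proteins, and IFNγ is known to replace the constitutive catalytic subunits with the immunosubunits, which changes the peptides that are made. Peptides then enter the endoplasmic reticulum through the TAP transporter, are shortened there by ERAP1, and are fitted into class I molecules with the help of tapasin, after which class I molecules show them to CD8+ T cells at the cell surface. Endothelial cells are known to carry class I molecules and to raise this machinery in response to IFNγ.

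RNA was sequenced from tumor endothelial cells of 8 subcutaneous tumors of B16.F10, a melanoma line from C57BL/6 mice, grown from 250000 injected cells in male C57BL/6 mice that were 8 weeks old. Of these mice, 4 received 2 peritumoral injections of 30 µg of agonistic CD40 mAb (αCD40, clone FGK4.5), which stimulates the receptor CD40, and 4 received the same dose of isotype control (rat IgG2a, clone 2A3), on days 13 and 16 after implantation. The labels place every harvest 1 day after the last injection, while the methods text also names a later day that the labels give to no library. From each tumor about 100000 live CD45-CD31+ cells were sorted, that is, cells without the leukocyte marker and with the endothelial marker. The libraries are called by mouse, 5N, 6L, 6R and 10N for agonistic CD40 mAb (anti-CD40 in the plots) and 5L, 7N, 8N and 9L for isotype control, and their values below stand in this order.

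The values are normalized reads, gene counts that the authors divided by a size factor per library. Reads on genes ranged from 12512772 to 64938728 with agonistic CD40 mAb and from 2971689 to 35583141 with isotype control, and 5L, 7N and 8N were the shallowest libraries. Endothelial markers, 10 genes such as Pecam1 and Cdh5, summed to 39820 to 58174 normalized reads with agonistic CD40 mAb, while with isotype control the sums were 34778 to 48929. The 24 leukocyte markers summed to between 1870 and 2147 against between 1444 and 2095. Of these, 11 were low in every library, the highest value among them being 5.41 normalized reads (Itgax in 6R). Cd3d was at 0 in every library. Ptprc, the gene of CD45, was at 5.77, 1.51, 21.1 and 11.6 normalized reads with agonistic CD40 mAb. With isotype control it was at 0, 2.38, 2.72 and 4.98. Most of the leukocyte sum came from Lcp1 (1083 to 1473 over the 8 libraries), and Lyz2 (56.2 to 251), Ptpn6 (47.6 to 147) and Cd68 (43.6 to 106) were also detected in every library. Markers of melanoma cells (7 genes, 35745 to 60850 against 38674 to 93734) and of fibroblasts and mural cells (8 genes, 84877 to 164282 against 59049 to 150226) were abundant in all libraries despite the sort. No tested gene of these 4 lists passed the threshold used here for a change. Of the 24 leukocyte markers, however, only 11 passed the filter on low values and were tested, and Ptprc was not among them. The part of these cells in the results below was not tested. In such bulk samples fewer cells of a type and less RNA per cell cannot be told apart.

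The question was whether the machinery differed between the groups treated with antibody to CD40 and with control antibody. It was higher with agonistic CD40 mAb for 8 of the 10 genes at the threshold of the study, where the ratio of means must reach 1.5 and p, before adjustment, must not exceed 0.05. By this rule 1.28% of the 12969 genes tested were higher, and 0.239% were lower, among them none of the 10 genes. The ratios of the 8 genes ran from 1.57 for Erap1 and Tapbpl to 2.62 for Psmb9, and the genes not past the threshold were those of the activator, Psme1 and Psme2. All 10 log2 fold changes were above 0, as were 51.3% of all log2 fold changes, and their median was 0.76 beside 0.0046 for all genes tested. That of Psme2 was -0.046 with edgeR, 0.0064 with DESeq2 and -0.030 without 5L. The unadjusted p was at most 0.05 with a higher value for 9 of the 10 genes and for 1.67% of all genes tested. In limma the p of Psmb10, Psme1 and Tapbpl exceeded 0.05 when some single libraries were left out. None of the 10 genes had an adjusted p under 0.05 in limma with Benjamini-Hochberg adjustment over all genes tested, the lowest being 0.358 for Psmb9, and 0.0154% of all genes did. On the reads recovered from the values, edgeR gave 0 of the 10 genes and 0.0231% of all genes an adjusted p under 0.05, whereas DESeq2 gave it to Psmb9 (0.00341), Tap1 (0.00494) and Erap1 (0.0470) and to 0.486% of all genes, with higher values in each case. At the threshold of the study, with their own p, edgeR called 7 of the 10 genes higher and 1.2% of all genes, and DESeq2 called 8 and 1.28%. The 4 values of each group did not overlap for Psmb8, Psmb9 and Erap1, 3 of the 10 genes, while 1.09% of all genes had all agonistic CD40 mAb libraries above all isotype control libraries.

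**Figure D1:**
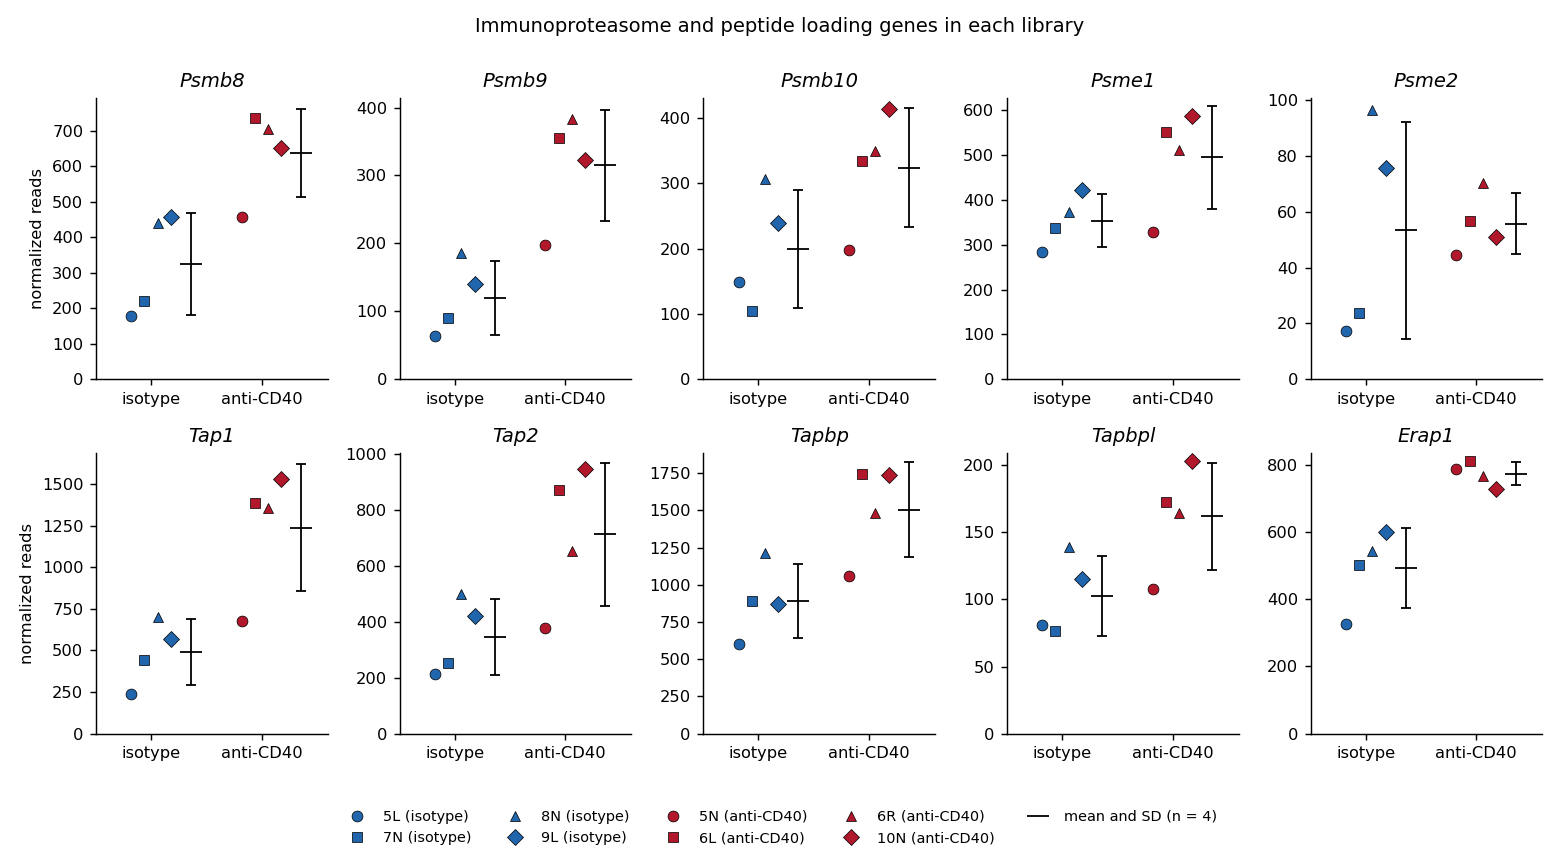
Normalized reads of the 10 genes in each library, with 1 panel per gene, isotype control in blue, agonistic CD40 mAb in red, and the mean ± SD (n = 4) beside the points. The red points lie above all blue points for Psmb8, Psmb9 and Erap1, whereas library 5N reaches down among the blue points for the other genes and the blue points of Psme2 span the red ones.

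In the mm10 genome 4 of the genes lie side by side in the MHC class II region of chromosome 17, within 34335 bases. Psmb9 (chr17:34181987-34187764) is read from the minus strand, and Tap1 (chr17:34187553-34197225), Psmb8 (chr17:34197721-34201454) and Tap2 (chr17:34203527-34216321) from the plus strand. The first exons of Psmb9 and Tap1 run in opposite directions and overlap by 212 bases over all annotated transcripts, 495 bases separate Tap1 from Psmb8, and 2072 separate Psmb8 from Tap2. Tapbp (chr17:33915899-33929292, plus) lies on the same chromosome, 252694 bases before Psmb9. Psme1 (chr14:55578123-55581529, plus) and Psme2 (chr14:55587441-55591113, minus) are 5911 bases apart on chromosome 14. The other genes stand apart from these and from each other, Psmb10 at chr8:105935735-105938444 (minus), Tapbpl at chr6:125223933-125231860 (minus) and Erap1 at chr13:74639568-74693201 (plus).

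Promoter windows, 250 bases before to 50 after a start, were taken from RefSeq (GRCm38.p6) and were held for 8 of the 10 genes, not for Tap2 and Tapbpl. Both strands were searched for GAAA and GAAA with any NN between them, the letters of an IFN-stimulated response element (ISRE), for TTCNNNGAA of a γ-activated site (GAS), both known from promoters of IFN-induced genes, and for the GC box GGGCGG, which is bound by SP1. ISRE letters were in the windows of 2 of the 8 genes, Psme1 and Erap1, and in 3.43% of all 32817 windows. GAS letters were in the window of Psmb8 and in 8.29% of all windows. A GC box was in the windows of 6 of the 8 genes and in 35.6% of all windows, and the window of Psmb10 held none of the 3 motifs. A match is a description of letters and not a site of binding.

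The sequence shown first is the 225 bases between the RefSeq starts of Psmb9 and Tap1, chr17:34187331-34187555 on the plus strand, because these genes had the largest ratios and are read away from each other out of this stretch. Its capitals mark a single GC box, which lies from -55 to -50 relative to the Psmb9 start and from -176 to -171 relative to the Tap1 start, and it holds neither ISRE nor GAS letters. The 147 bases before the Psmb8 start, chr17:34198048-34198194 on the plus strand, are shown for the GAS letters in capitals, from -97 to -89 relative to the start. The stretches of Psme1 (chr14:55578493-55578522, plus strand) and Erap1 (chr13:74639839-74639868, plus strand) show ISRE letters, read on the opposite strand, in capitals. The gene spans given above are from GENCODE M21, whose outermost starts lie further out than these RefSeq starts. By those spans each stretch lies inside a gene, the first inside Psmb9.
Psmb9 to Tap1: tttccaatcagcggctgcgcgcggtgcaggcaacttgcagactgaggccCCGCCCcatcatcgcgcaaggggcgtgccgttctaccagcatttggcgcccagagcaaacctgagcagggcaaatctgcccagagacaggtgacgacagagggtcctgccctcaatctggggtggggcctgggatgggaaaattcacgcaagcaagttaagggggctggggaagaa
Psmb8: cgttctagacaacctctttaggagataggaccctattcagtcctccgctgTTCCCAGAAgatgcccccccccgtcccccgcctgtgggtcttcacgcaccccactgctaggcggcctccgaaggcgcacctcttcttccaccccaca
Psme1: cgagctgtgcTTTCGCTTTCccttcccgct
Erap1: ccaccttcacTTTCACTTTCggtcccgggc

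Psmb8 encodes β5i, the immunosubunit with chymotrypsin-like activity, which replaces the product of Psmb5. Its values were 457, 736, 704 and 650 normalized reads with agonistic CD40 mAb and 178, 221, 441 and 455 with isotype control. The groups did not overlap, but 5N was nearly level with 9L, the highest library of the isotype control, and 5L and 7N were far below the rest. The means were 637 ± 125 and 324 ± 145 (SD, n = 4 each), a ratio of 1.96. The log2 fold change on the scale of log2(value + 1) was 1.07 ± 0.30 (SE), with limma p = 0.00469 and adjusted p = 0.771, and the exact two-sided permutation test of the means gave p = 0.0286. This is the smallest p that 4 against 4 libraries allow.

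Psmb9 encodes β1i, which replaces the product of Psmb6 and turns a caspase-like activity into one that favors peptides with hydrophobic ends. Its values were 197, 356, 383 and 323 normalized reads with agonistic CD40 mAb and 63.5, 90.4, 186 and 140 with isotype control. Every agonistic CD40 mAb library was above every isotype control library, again with 5N close to the highest of these, here 8N. The means were 315 ± 82.3 and 120 ± 54.4, a ratio of 2.62, the largest of the 10 genes. The log2 fold change was 1.46 ± 0.33, with limma p = 0.00100 and adjusted p = 0.358, and the exact permutation p was 0.0286.

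Psmb10 encodes β2i, which has trypsin-like activity and replaces the product of Psmb7. It was measured at 197, 335, 350 and 414 normalized reads with agonistic CD40 mAb and at 149, 105, 306 and 239 with isotype control. Here the groups overlapped, since 5N was below 8N and 9L. The means were 324 ± 91.1 and 199.7 ± 90.3, a ratio of 1.62, and the log2 fold change was 0.76 ± 0.33 with limma p = 0.0420, adjusted p = 1.00 and an exact permutation p of 0.114. Psmb10 no longer passed the threshold when any of 6L, 6R, 10N, 5L or 7N was left out, and its log2 fold change was 0.49 without 7N.

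The constitutive subunits in the same positions did not pass the threshold. Psmb5 was at 405 ± 47.4 and 394 ± 56.5 normalized reads, a log2 fold change of 0.041 with a 95% interval of -0.28 to 0.36. For Psmb6 the log2 fold change was 0.079 (-0.33 to 0.49) and for Psmb7 it was -0.043 (-0.31 to 0.22). The intervals leave room for changes of these sizes in either direction. When each library was left out, the log2 fold change ranged from -0.043 to 0.12 for Psmb5 and from -0.11 to 0.026 for Psmb7. That of Psmb6 was -0.12 without 7N and 0.16 without 9L. In transcripts, 54.1% of the 50-base windows of Psmb5 also occur in other genes, so its reads may be split.

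The balance between an immunosubunit and its constitutive counterpart was compared within each library, where the scaling of the library drops out. As a percent of the summed level per kilobase of transcript, Psmb8 made up 42.2, 50.8, 47.9 and 44.0% of the Psmb8 and Psmb5 pair with agonistic CD40 mAb and 17.7, 27.1, 39.5 and 37.6% with isotype control. Psmb9 made up 19.02, 26.1, 26.8 and 25.3% of the Psmb9 and Psmb6 pair with agonistic CD40 mAb and 5.78, 13.2, 15.4 and 11.5% with isotype control. Both shares were higher in every agonistic CD40 mAb library than in any isotype control library, and both were lowest in 5L. Psmb10 made up 14.6, 26.4, 21.9 and 29.4% of the Psmb10 and Psmb7 pair with agonistic CD40 mAb and 11.7, 8.21, 22.9 and 17.8% with isotype control, and these groups overlapped. The mean share of Psmb8 was 46.2 ± 3.86% against 30.5 ± 10.1%, and the log2 ratio of Psmb8 to Psmb5 differed by 1.03 (exact permutation p = 0.0286, adjusted over 4 ratios by Benjamini-Hochberg 0.0571). The mean share of Psmb9 was 24.3 ± 3.57% against 11.5 ± 4.11%, a difference in the log2 ratio of 1.38 (exact permutation p = 0.0286, adjusted 0.0571). For Psmb10 the mean share was 23.1 ± 6.43% against 15.1 ± 6.52%, and the log2 ratio differed by 0.81 (exact permutation p = 0.171, adjusted 0.229), or by 0.51 without 7N. No ratio was thus under 0.05 after adjustment, and 0.0571 is what the smallest exact p gives for a pair of ratios among 4.

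**Figure D2:**
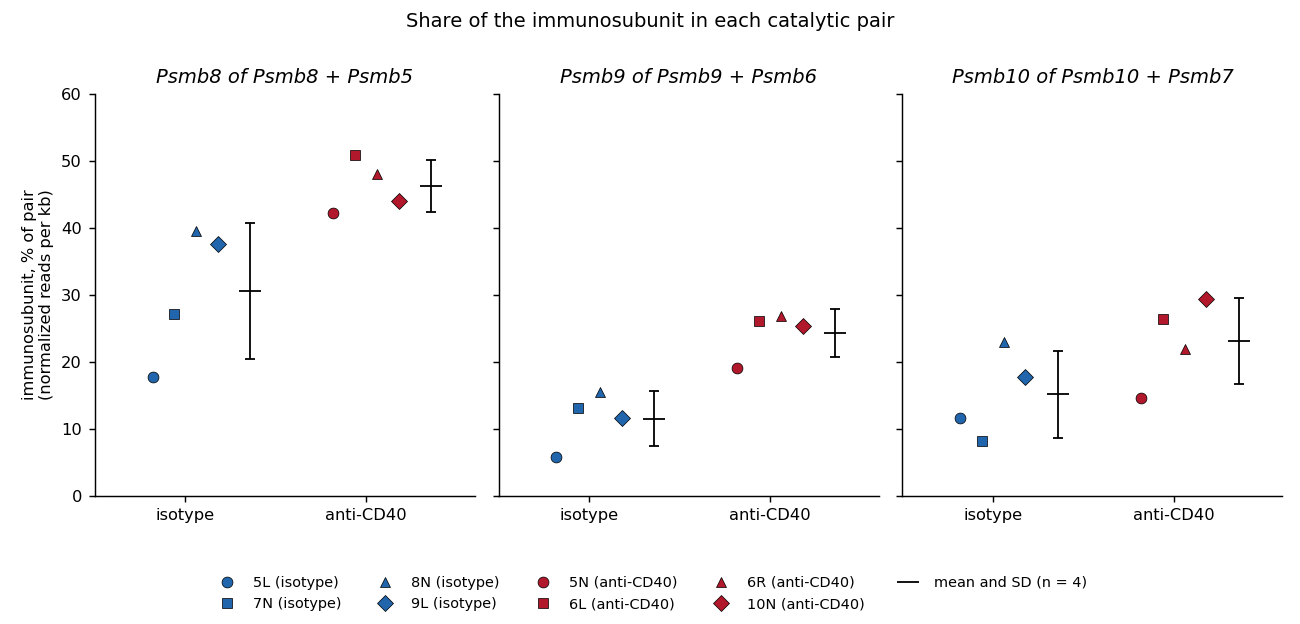
Share of the immunosubunit in the summed level per kilobase of its pair, in percent, for each library and for the mean ± SD of each group (n = 4). For Psmb8 and Psmb9 the agonistic CD40 mAb libraries lie above all isotype control libraries, whereas for Psmb10 5N (14.6%) and 6R (21.9%) lie among them.

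Proteasome genes outside the 10 did not pass the threshold. The 3 constitutive catalytic subunits, 11 other subunits of the 20S core, 5 assembly factors and 19 subunits of the 19S regulator make 38 genes, none of which passed it or the unadjusted limit of 0.05 in limma. At the same threshold edgeR and DESeq2 called none of them either. Their log2 fold changes ran from -0.17 to 0.43 with a median of -0.019, and 12 were above 0 and 26 below. The lowest p among the other core subunits were those of Psma4 (log2 fold change -0.15) and Psmb3 (-0.099). Among the subunits of the 19S regulator, the cap of the proteasome that takes in ubiquitin-tagged proteins, they were those of Psmd14 (-0.11) and Psmd4 (-0.12). Of the assembly factors, Psmg4 had a log2 fold change of 0.43 (-0.21 to 1.07) and Psmg2 one of -0.17 (-0.55 to 0.21), and Psmg4 alone passed the threshold in a fit without a library, 5N (0.66), while without 10N its log2 fold change was 0.21.

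The 11S activator PA28, a ring of the products of Psme1 and Psme2, opens the proteasome barrel. Psme1 was measured at 329, 553, 512 and 589 normalized reads with agonistic CD40 mAb and at 283, 338, 373 and 423 with isotype control. Library 5N was below 7N, 8N and 9L, while 6L, 6R and 10N were above all isotype control libraries. The means were 496 ± 115 and 354 ± 58.7, and the ratio of 1.40 was under the threshold, with a log2 fold change of 0.46 ± 0.20, limma p = 0.0386 and an exact permutation p of 0.114. Without 5N Psme1 passed the threshold with a log2 fold change of 0.65. Its limma p was above 0.05 without any of 6L, 6R, 10N, 5L, 7N or 8N, and also with no filter or without the trend.

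Psme2 was measured at 44.6, 56.6, 70.4 and 51.1 normalized reads with agonistic CD40 mAb and at 17.1, 23.8, 96.6 and 75.8 with isotype control. The isotype control values spanned those with agonistic CD40 mAb, with 5L and 7N below and 8N and 9L above all of them, and the value of 5L rested on 7 reads. The means were 55.7 ± 10.96 and 53.3 ± 39.0, a ratio of 1.04, while the mean of logarithms gave a log2 fold change of 0.38 with a 95% interval of -0.72 to 1.49 (limma p = 0.458, exact permutation p = 0.886). It ranged from -0.030 without 5L and 0.12 without 7N to 0.67 without 9L and 0.78 without 8N. Mouse chromosome 11 carries Psme2b (chr11:48945354-48946190, minus strand), a retrogene copy of Psme2, and 69.3% of the 50-base windows of Psme2b and 28.3% of those of Psme2 also occur in other genes, for the most part in each other. Reads of the pair cannot be told apart there, and the value of Psme2 is uncertain.

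Psme2b held most of the reads of the pair, with 519, 580, 626 and 590 normalized reads with agonistic CD40 mAb and 252, 504, 534 and 559 with isotype control. Only 5N among the agonistic CD40 mAb libraries was below the highest isotype control values, and 5L was far below the rest. Exons of 9930111J21Rik1 on the same strand overlap 4.9% of the exon bases of Psme2b, and reads there cannot be told apart. The share of the pair assigned to Psme2 was between 7.92 and 10.1% with agonistic CD40 mAb and between 4.50 and 15.3% with isotype control. Summed over both genes the means were 634 ± 54.5 and 516 ± 172, a ratio of 1.23, with a log2 fold change of 0.37 and a 95% interval of -0.17 to 0.91 (limma p = 0.156, exact permutation p = 0.171). Psme3, which encodes the other 11S activator, had a log2 fold change of -0.12 (-0.51 to 0.28), or 0.044 without 5L. Psme4, the gene of the activator PA200, had one of -0.18 (-0.43 to 0.069), and Psmf1, the gene of the inhibitor PI31, one of -0.0052 (-0.42 to 0.41). The log2 ratio of Psme2 to Psme3 was 0.50 higher with agonistic CD40 mAb (exact permutation p = 0.543, adjusted 0.543), and the difference was -0.074 without 5L, 0.30 without 7N, 0.84 without 9L and 0.94 without 8N.

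**Figure D3:**
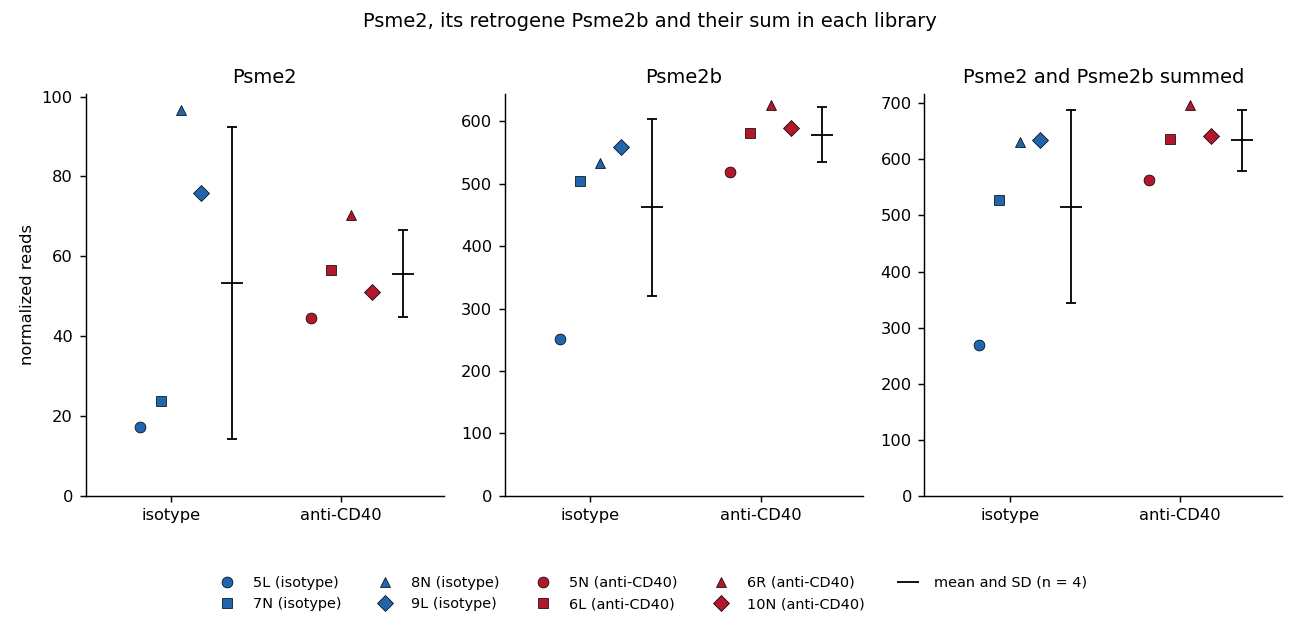
Normalized reads of Psme2, of its retrogene Psme2b and of their sum in each library, with the mean ± SD of each group (n = 4). The mean of Psme2b is 579 with agonistic CD40 mAb, where that of Psme2 is 55.7, and in the sum 5L (269) lies below all other libraries.

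TAP1 and TAP2 together form the transporter that carries peptides into the endoplasmic reticulum. Tap1 was measured at 680, 1389, 1356 and 1531 normalized reads with agonistic CD40 mAb and at 239, 445, 704 and 570 with isotype control. Library 5N lay just below 8N, and the other agonistic CD40 mAb libraries lay far above all isotype control libraries. The means were 1239 ± 381 and 489.6 ± 197, a ratio of 2.53, with a log2 fold change of 1.38 ± 0.34, limma p = 0.00184, adjusted p = 0.459 and an exact permutation p of 0.0571.

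Tap2 was measured at 379, 871, 655 and 947 normalized reads with agonistic CD40 mAb and at 215, 252, 499.6 and 421 with isotype control. The order of the libraries was like that of Tap1, with 5N below 8N and 9L. The means were 713 ± 255 and 347 ± 136, a ratio of 2.05, with a log2 fold change of 1.04 ± 0.33, limma p = 0.00901 and an exact permutation p of 0.0857. Tap1 and Tap2 passed the threshold in all 8 fits that left out a library.

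Tapbp encodes tapasin, which bridges class I molecules to TAP and favors tightly bound peptides. It was measured at 1059, 1743, 1479 and 1737 normalized reads with agonistic CD40 mAb and at 604, 890, 1210 and 869 with isotype control. The groups overlapped by 5N and 8N alone. The means were 1504 ± 321 and 893 ± 248, a ratio of 1.68, with a log2 fold change of 0.77 ± 0.22, limma p = 0.00513 and adjusted p = 0.783, and the exact permutation p was 0.0571.

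Tapbpl encodes TAPBPR, a tapasin-related editor that works apart from the TAP complex. It was measured at 108, 172, 164 and 203 normalized reads with agonistic CD40 mAb and at 80.6, 76.1, 139 and 115 with isotype control. Again 5N lay among the isotype control libraries, below 8N and 9L. The means were 162 ± 39.7 and 103 ± 29.8, a ratio of 1.57, with a log2 fold change of 0.66 ± 0.25, limma p = 0.0254 and an exact permutation p of 0.0857. It fell short of the threshold without any of 6L, 6R, 10N, 5L or 7N.

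Erap1 encodes the aminopeptidase that trims peptides in the endoplasmic reticulum to the length class I molecules hold. It was measured at 787, 811, 765 and 729 normalized reads with agonistic CD40 mAb and at 325, 502, 543 and 598 with isotype control. All agonistic CD40 mAb libraries lay above all isotype control libraries, and 5N, low for most of the other genes, was the second highest. The means were 773 ± 34.9 and 492 ± 118, a ratio of 1.57, with a log2 fold change of 0.69 ± 0.18, limma p = 0.00261 and adjusted p = 0.564, and the exact permutation p was 0.0286. Without 5L the ratio fell under the threshold while limma p was 0.00107 and the log2 fold change 0.50.

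Exons of other genes overlap some of these genes, and the library kit used does not keep the strand, so reads there cannot be told apart. Annotated overlaps cover 29.0% of the exon bases of Tapbp (by Zbtb22 and Gm19412), 18.5% of Tap2 (by Gm15821 and Gm20496), 14.7% of Psmb8 (by Gm20496) and 11.5% of Erap1 (by Cast). They cover 5.79% of Psmb9 and 3.87% of Tap1, which overlap each other. Of the partners outside the 10 genes that were tested, Zbtb22 had a log2 fold change of -0.025 and Cast one of 0.15, neither past the threshold.

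The other helpers of class I folding in the endoplasmic reticulum did not move past the threshold, in 0 of 6 genes, and none passed the unadjusted limit of 0.05 in limma or was called by edgeR or DESeq2. Calr and Canx, which encode the lectin chaperones calreticulin and calnexin, had log2 fold changes of 0.0070 (-0.28 to 0.30) and -0.088 (-0.39 to 0.21). Pdia3, which encodes the disulfide isomerase ERp57 of the loading complex, had one of -0.065 (-0.42 to 0.29). Uggt1 and Ganab, whose products add and remove glucose on glycans, had log2 fold changes of -0.035 (-0.31 to 0.24) and -0.060 (-0.30 to 0.18), and Hspa5, the gene of the chaperone BiP, had one of -0.14 (-0.52 to 0.24). Of 9 cytosolic and endosomal peptidases, which cut or destroy peptides outside the endoplasmic reticulum, 0 passed the threshold, 0 had a limma p of at most 0.05 and 0 were called by edgeR or DESeq2. The lowest p were those of Lap3, the gene of leucine aminopeptidase (log2 fold change 0.22), and Tpp2, the gene of tripeptidyl peptidase (-0.13).

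Of the class I molecules, which receive the peptides, the classical heavy chain genes H2-K1 and H2-D1 and the light chain gene B2m were examined, and these 3 genes passed the threshold. H2-K1 was 2.63-fold, H2-D1 2.10-fold and B2m 2.05-fold higher with agonistic CD40 mAb, with log2 fold changes of 1.44 ± 0.29, 1.08 ± 0.25 and 1.11 ± 0.31, and for each of the 3 genes the groups did not overlap. Adjusted p in limma was 0.283, 0.365 and 0.773. H2-K1 and H2-D1 belong to a family of closely similar genes, so reads may be split among them.

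**Figure D4:**
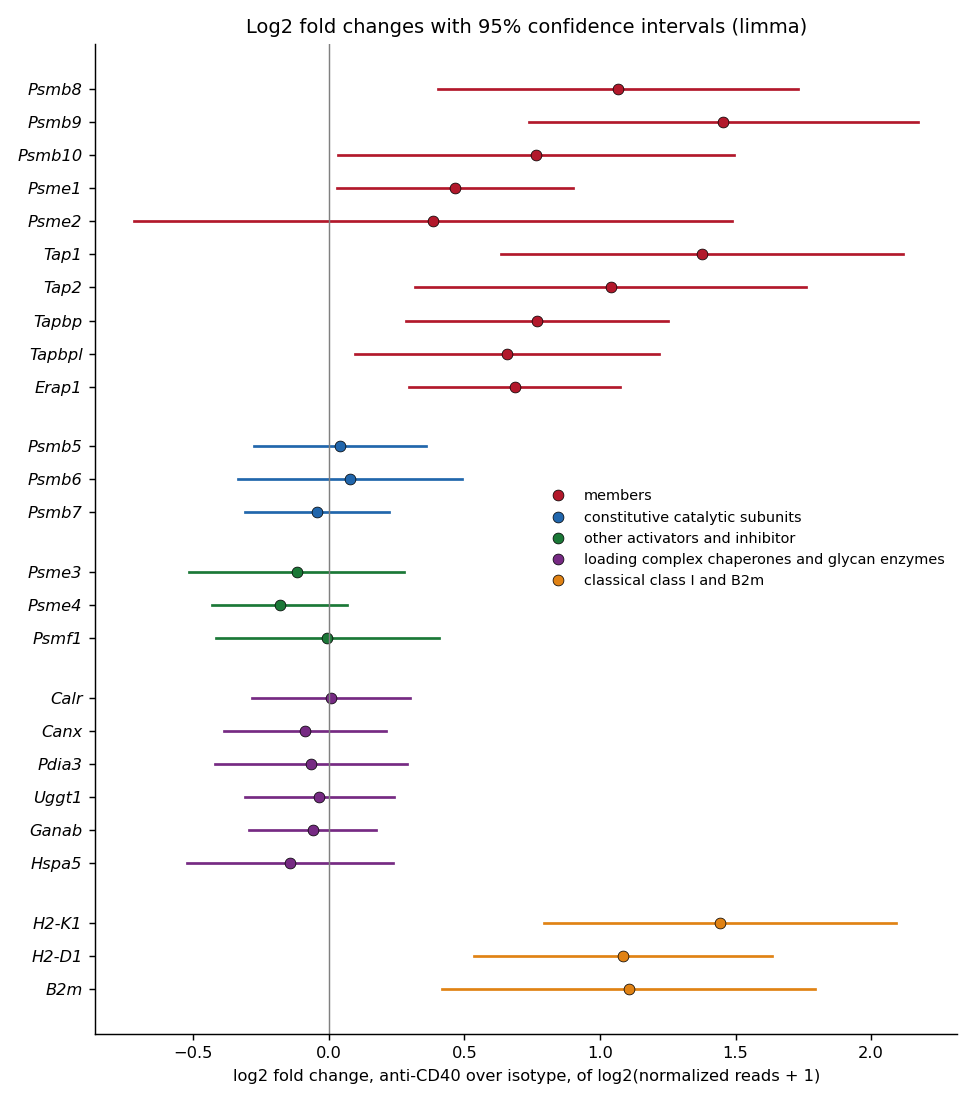
Log2 fold changes, agonistic CD40 mAb over isotype control, of log2(normalized reads + 1), with 95% confidence intervals from limma (n = 4 libraries per group) for the 10 genes and 4 related lists. The points of the 10 genes lie between 0.38 and 1.46 and those of H2-K1, H2-D1 and B2m between 1.08 and 1.44, while the points of the other lists lie between -0.18 and 0.079.

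Among genes of the IFNγ receptor and of transcription regulators of the pathway, Nlrc5 and Irf1 passed the threshold, both higher with agonistic CD40 mAb and with groups that did not overlap. Of all genes tested, 1.28% were called higher and 1.09% had groups apart in this direction. The median log2 fold change of the whole list was 0.16, beside 0.0046 for all genes tested. Nlrc5, whose product is the transactivator of class I genes, was measured at 486, 717, 657 and 670 normalized reads with agonistic CD40 mAb and at 78.2, 207, 316 and 267 with isotype control. Its lowest agonistic CD40 mAb library was again 5N and its lowest isotype control library 5L, and its ratio of 2.92 (log2 fold change 1.70 ± 0.36, adjusted p = 0.293 in limma) was above those of all 10 genes. Irf1, which encodes an IFN-induced transcription factor, was 1.99-fold higher (1.03 ± 0.25). Stat2 had a ratio of 1.39, under the threshold of 1.5, and a log2 fold change of 0.52 (0.068 to 0.96). This was 0.30 without 5L, and without 9L Stat2 passed the threshold at 0.64. The receptor gene Ifngr1 had a log2 fold change of 0.11 (-0.30 to 0.52) and the kinase gene Jak2 one of 0.12 (-0.24 to 0.47).

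Levels of different genes were compared per kilobase of transcript. Here and for the shares of the subunit pairs, the length was that of the longest annotated protein-coding transcript. That transcript need not be the one expressed. With agonistic CD40 mAb the order was Tapbp (519 ± 111 normalized reads per kilobase), Psme1 (446 ± 104), Tap1 (419.5 ± 129), Psmb8 (391 ± 76.9), Psmb10 (247 ± 69.5), Psmb9 (233 ± 60.8), Tap2 (207 ± 74.0), Erap1 (137 ± 6.19), Tapbpl (68.8 ± 16.9) and Psme2 (57.9 ± 11.4). Only the steps from Psmb8 to Psmb10 and from Erap1 to Tapbpl exceeded the SDs of both neighbors. With isotype control the order was Psme1 (319 ± 52.8), Tapbp (308 ± 85.7), Psmb8 (199 ± 88.8), Tap1 (166 ± 66.8), Psmb10 (152 ± 68.9), Tap2 (101 ± 39.4), Psmb9 (88.8 ± 40.2), Erap1 (87.2 ± 20.9), Psme2 (55.5 ± 40.6) and Tapbpl (43.7 ± 12.7), and only the step from Tapbp to Psmb8 did so. Tap1 was thus above Tap2 per kilobase in the means of both groups, at 419.5 against 207 and at 166 against 101.

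The libraries also differed within groups. The mean of their log2 values, each centered on the gene's mean over the 8 libraries, was -0.089, 0.62, 0.56 and 0.64 with agonistic CD40 mAb and -1.06, -0.74, 0.14 and -0.068 with isotype control. Thus 6L, 6R and 10N stood above all isotype control libraries, 5N lay level with 9L and below 8N, and 5L and 7N stood far below. Not every gene followed this order, since 5N was high for Erap1, and 8N and 9L were above all agonistic CD40 mAb libraries for Psme2. Library 5L was the lowest for 8 of the 10 genes and 7N for the other two. The highest library was 10N for 5 genes, 6L for 3, 6R for 1 and 8N for 1, the last being Psme2. Library 5L, with 2971689 reads the shallowest, also had the lowest sum of endothelial markers (34778), the lowest of leukocyte markers (1444) and of fibroblast and mural markers (59049), and the highest of melanoma markers (93734), and 7N, with 3446781 reads, had the second lowest endothelial sum (37344). Library 5N was the deepest, with 64938728 reads. The part of depth and of the makeup of the sorted cells in these differences was not tested. Leaving out 5L left 5 of the 10 genes past the threshold, Psmb8, Psmb9, Tap1, Tap2 and Tapbp, and leaving out 5N left 9. These 5 genes passed it whichever library was left out. Over all genes, 161 were past it and higher without 5L and 174 without 5N, against 166 with all libraries.

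The tested genes outside the 10 that followed this mean most closely over the 8 libraries, by the root mean square difference of centered log2 values, were Trim21 (0.119), Uba7 (0.151), Pla2g16 (0.162), Parp10 (0.165) and Slc15a3 (0.167). The median of all other tested genes was 0.638, and the 10 genes themselves lay between 0.158 for Psmb8 and 0.488 for Psme2. Trim21 encodes a cytosolic antibody receptor with ubiquitin ligase activity. It was measured at 122, 155, 167 and 163 normalized reads with agonistic CD40 mAb and at 48.9, 69.0, 113 and 113 with isotype control, with 5N and 5L lowest in their groups. Uba7 encodes the enzyme that activates the ubiquitin-like protein ISG15.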

How the data were processed

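The authors prepared libraries from 10 ng of RNA per tumor with TruSeq RNA v2 reagents. Per the submitters' processing notes and the methods they used CASAVA 1.8, Bowtie2 2.2.1 within TopHat2, Partek 6.6 and DESeq2 on mm10, and the annotation is not given in the sources used here. The deposited signal values are gene counts divided by DESeq2 size factors, 1 per gene and library. In them 99.9% were whole multiples of 1 read within 0.1 read, which gave the reads per library (1 read is worth 0.118 to 2.44 normalized reads). The methods describe a correction for harvest day, which is not seen in values that keep these multiples. The labels give all libraries the same day, so the fit has no term for it, and its part in the results was not tested.

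Values were taken as log2(value + 1) and fitted with limma 3.58.1 (R 4.3.3, trend, treatment only) where the larger of both group means was above 10 (12969 genes). P was two-sided and adjusted by Benjamini-Hochberg over these genes. Ratios are of group means without logarithm. Single genes and ratios were compared by exact two-sided permutation over the 70 assignments. The scripts were tested on simulated data. Each library is from a different mouse. Reads lack molecular identifiers, so depth covers counting error only.

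The members and lists were chosen with earlier results of these data known. Named are the 10 genes, all genes of the constitutive catalytic, activator, loading and class I lists, from the other lists those past the threshold or else the 2 with the lowest p, Irf1, Nlrc5, the 5 genes most like the members, and markers that move with a result. Stat2, Ifngr1, Jak2, Psme2b and the overlapping genes were added with values known. A gene that meets this rule is not reported here. Positions and overlaps are from GENCODE M21 (mm10). Alternatives were pseudocounts of 0.1 and 10, no filter, a minimum mean of 50, size factors computed anew, quantile normalization, limma with robust moderation or without trend, edgeR 4.0.16 (TMM, quasi-likelihood) and DESeq2 1.42.0 on recovered reads, leaving out each library and, chosen after seeing the data, the sum of Psme2 and Psme2b. On recovered reads edgeR gave 3 genes a higher value with an adjusted p under 0.05 and DESeq2 63.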

Additional observations from a re-analysis of the deposited data

Results flagged for a closer look

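None of the 10 genes had a library set apart from the other 3 of its group by Dixon's test. Among the 72 groups of values examined, 3 were, all with isotype control, and chance sets apart about 1 in 20 groups, here about 4. Psmb6 was at 352 normalized reads in 7N, where the median of the group was 608. Psme3 was at 1437 normalized reads in 5L, above the group median of 925. B2m was at 3385 normalized reads in 5L, below the group median of 8701.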

How the results depend on the processing

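Over the alternatives, 7 or 8 of the 10 genes passed the threshold, and 5 (without 5L) to 9 (without 5N) when each library was left out. DESeq2 on recovered reads gave 3 of them an adjusted p under 0.05, against 0 with limma. Psme2 turned to -0.046 with edgeR and ranged from -0.030 (without 5L) to 0.78 when each library was left out, and the log2 ratio of Psme2 to Psme3 differed by -0.074 (without 5L) to 0.94. The assembly factors past the threshold numbered 0 to 1 (Psmg4, without 5N). Psmb10 lost its call with no filter, without the trend and with edgeR. The genes past the threshold and higher numbered 124 to 234 over all genes when each library was left out, and 297 with no filter. The causes were not tested. No alternative moved the median of all genes by over 0.1 on the log2 scale. Values of 5L, 7N and 8N are the least precise, where 1 read is worth 1.36 to 2.44 normalized reads. No paired analysis was possible because the mouse names of the groups share only 1 number, that of 5N and 5L, and the labels do not say what it stands for.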
